A study of Trachinotus ovatus with 6 samples.

Results

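Linkage group 16 of Trachinotus ovatus, the golden pompano, a marine fish, holds 848 of the 22062 genes in the deposited expression table, taken as every gene whose position lies on that group. It was singled out because earlier results of these data put it lowest of the 24 linkage groups in its share of testis-biased genes, so that share is given here as a description and supports nothing. The study sequenced RNA from the testes of 3 males and the ovaries of 3 females, with the Sox family of transcription factors as its named subject. The labels give testes the genotype TOQX and ovaries the genotype TOQC, and their treatment field only records that the gonad was taken out. Age and strain are not stated in the labels. The 6 libraries came from different fish by the study's design. Values are FPKM, in which fragment counts are divided by the length of the gene model and by the size of the library, so a few very abundant transcripts lower all others in a library.

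A linkage group is a set of markers inherited together and corresponds to a chromosome. In fishes, genes that differ in level between testis and ovary are common throughout the genome, because the testis makes sperm cells in many stages while the ovary stores large amounts of RNA in its oocytes. Testis and ovary are mixtures of germ cells and supporting somatic cells, and in bulk RNA fewer cells of a type cannot be told apart from less RNA per cell. Identifiers come without gene names in the table, so loci are given by identifier and position, their functions are unknown here, and the tissue labels could not be checked against marker genes. Positions are those of the deposited table, whose genome build is not given in the sources used here. Summed FPKM was 490967, 486141 and 485022 in the testes and 796856, 658899 and 733130 in the ovaries, and read depth is unknown.

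Most genes of linkage group 16 that differed between the gonads were higher in testis, as on the other groups. Of the 848 genes, 659 reached 1 FPKM in at least 3 libraries and were tested, and the other 189 were too low. With limma over all 17206 tested genes of the table, 421 of the 659 were higher in testis at an adjusted p under 0.05, and 99 were higher in ovary. Over the 17206 genes, 81.6% passed that threshold, 68.2% toward testis and 13.4% toward ovary. The p-values measure the spread between these 6 fish. A gene is called testis-biased or ovary-biased here when it also differed by a log2 fold of 1 or more on the log2(FPKM + 1) scale, a scale that understates the change of low genes. By that rule 370 genes were testis-biased and 66 ovary-biased, against 62.1% and 9.68% of tested genes in the whole table. Since the group was picked on this contrast, nothing is read from these counts.

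The testis-biased share was 56.1% on linkage group 16 and 62.3% on the other 23 groups pooled. Single groups among the 23 ran from 57.6% to 65.2%. The ovary-biased share was 10.02% on linkage group 16, in place 10 of 24 from the highest, and 9.68% on the other groups. With FPKM as deposited, 223 genes of linkage group 16 had neither bias, or 33.8% against 28.0% on the others. The 33.8% was the highest of the 24 groups. Of those 223 genes, 139 did not pass the test, 51 passed with a smaller fold toward testis and 33 with a smaller fold toward ovary. The ovary-biased share thus lay within the range of the other groups, while the share with neither bias lay above it. The share with neither bias is what the biased shares leave, so it is tied to the share on which the group was picked. Nothing is read from its rank. At a log2 fold of 2 or more the shares were 29.3% on linkage group 16 and 33.7% on the others. Genes at a log2 fold of 4 or more toward testis numbered 22, or 3.34% of tested genes, against 4.31% on the other groups. Toward ovary, 12 genes reached a log2 fold of 4, or 1.82% against 1.13%, in place 3 of 24 from the highest.

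**Figure D1:**
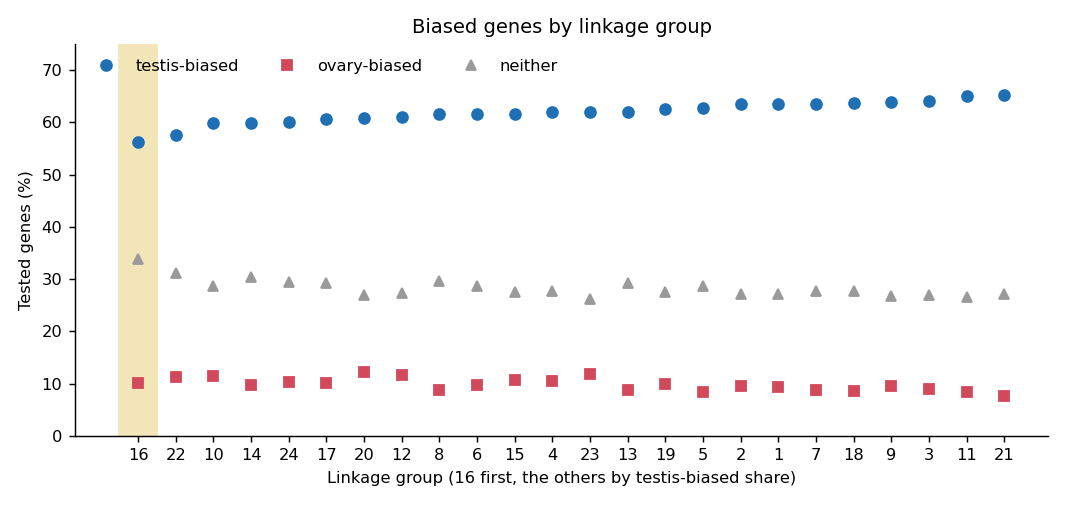
Percent of tested genes that were testis-biased (circles), ovary-biased (squares) or neither (triangles) on each linkage group, with group 16 first and the others in order of their testis-biased share. With FPKM as deposited, linkage group 16 had the lowest testis-biased share, 56.1%, and the highest share with neither bias, 33.8%. Its ovary-biased share of 10.02% lay among the others.

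Median levels in the 6 libraries are given as a description, since the group was picked on these same values. Nothing is read from their order. Tested genes of linkage group 16 had median levels of 8.79, 7.57 and 8.34 FPKM in testes 1, 2 and 3, against 8.86, 7.92 and 8.79 FPKM for tested genes of the other groups. In ovaries 1, 2 and 3 their medians were 1.504, 3.37 and 2.57 FPKM, against 1.15, 2.64 and 2.01 FPKM on the other groups. The medians on linkage group 16 were thus slightly lower than elsewhere in each testis and higher than elsewhere in each ovary. Testis over ovary, the median log2 fold change was 1.23 on linkage group 16 and 1.44 on the others. Spread between fish was alike: the median SD per gene on the log2(FPKM + 1) scale was 0.184 on linkage group 16 and 0.184 on the others among testes, and 0.243 and 0.24 among ovaries.

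How many genes fall in each direction depends on the scaling of the libraries. The median log2 fold change over all tested genes of the table was 1.43 as deposited, 2.09 with TPM, 1.16 with median ratios of genes at 1 FPKM or more in every library, and 0.13 after quantile normalization. In the same order, that of linkage group 16 was 1.23, 1.84, 0.91 and 0.01, and it was -0.20 after centring. Testis-biased genes made up 84.9% of all biased genes of linkage group 16 with FPKM as deposited, 90.8% after rescaling to TPM, 75.5% with those median ratios, 45.1% after quantile normalization and 38.5% after the median change was subtracted. The share of tested genes that were testis-biased stayed lower on linkage group 16 than on the other groups pooled in each of these. The group remained the lowest of 24 with TPM and with those median ratios, and stood in place 2 from the lowest after centring (19.6% against 22.8%) and in place 4 after quantile normalization (20.3% against 23.2%). The ovary-biased share was 6.83% against 6.40% on the other groups with TPM, and 15.6% against 13.9% with those median ratios. It was 31.3% against 27.0% after centring and 24.7% against 22.6% after quantile normalization. The share with neither bias was higher than on the other groups as deposited, with TPM and with those median ratios. It was slightly higher after quantile normalization and lower after centring, so it depends on the scaling.

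In windows of 1 Mb counted from the start of the group, the testis-biased share was uneven, about as much as on other groups. The SD over its windows was 11.55 percentage points, against 7.48 to 15.6 (median 11.17) on the other groups. Of 24 windows, 16 lay under the 62.3% of the other groups, and 8 lay at or above it. Windows held 10 to 56 tested genes, so a single window's share is imprecise. The lowest was the window from 14 to 15 Mb, with 13 testis-biased genes of 35 (37.1%), and its neighbour from 13 to 14 Mb held 25 of 56 (44.6%). Ordered by the lowest window of each group, linkage group 16 stood in place 7 of 24 from the lowest. The highest were the last window, from 23 Mb to the end of the group, with 19 of 23 (82.6%), and the window from 2 to 3 Mb, with 12 of 15 (80.0%). No window had a median log2 fold change under 0, and window medians ran from 0.74 to 2.34. Without any 1 window the group's share was 55.2% to 57.2%, always under the lowest of the other groups at 57.6%.

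At the share of the other groups, 410.7 of the 659 genes would be testis-biased, which is 40.7 more than were. This shortfall is net, since windows above the line offset part of it. The windows from 12 to 23 Mb thus held 104.1% of it, and such percentages are not parts of a whole. The window from 13 to 14 Mb held 9.9 of this shortfall and that from 14 to 15 Mb held 8.81. Together these 2 Mb held 91 tested genes (13.8% of the group), with 38 testis-biased (41.8%), 11 ovary-biased and 42 with neither bias. Their shortfall came to 46.0% of the net shortfall. Their median levels were 8.41, 7.87 and 7.94 FPKM in testes 1, 2 and 3, and 2.68, 5.92 and 4.42 FPKM in ovaries 1, 2 and 3. Among 336 stretches of 2 adjacent windows with at least 50 tested genes on the other groups, the lowest share was 43.1%, on linkage group 8 from 3 to 5 Mb. Since linkage group 16 was picked for its low share, nothing is read from this order. Without its windows from 13 to 15 Mb, which were chosen after their values were seen, linkage group 16 stood at 58.5% (332 of 568), with 1 other group lower.

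The rest of the shortfall lay mostly in the windows around that stretch. All 11 windows from 12 to 23 Mb were under 62.3%, and their 368 tested genes had a share of 50.8%. The longest row of such windows on any other group was 7, on linkage group 10. The group was picked for a low share, which by itself puts more windows under that line. Nothing is read from the length of its row. The remaining 291 tested genes, before 12 Mb and after 23 Mb, had a share of 62.9%, close to that of the other groups. The row from 12 to 23 Mb was picked for lying under 62.3%, so nothing is read from the higher share of the rest. On every other group too, its own longest row had a lower share than the rest of that group. Divided at 12 Mb, the first part had 164 testis-biased genes of 268 (61.2%) and 5 of 12 windows under the line, while the second had 206 of 391 (52.7%) and 11 of 12. This contrast was absent, with the order slightly turned, under 4 other settings. At a log2 fold of 2 or more the shares were 28.7% before and 29.7% after 12 Mb. They were 42.6% and 43.3% where the mean over the libraries had to reach 5 FPKM, 19.8% and 20.7% after quantile normalization, and 19.0% and 19.9% after centring. The stretch from 13 to 15 Mb was lower than the whole group under each of these 4 settings, at 19.8%, 27.9%, 14.3% and 12.1%, against 29.3%, 43.0%, 20.3% and 19.6% for the group. Among genes that overlap no other, both contrasts were smaller. The stretch then stood at 51.1% against 57.4% for the group, and the shares before and after 12 Mb were 59.8% and 56.2%.

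**Figure D2:**
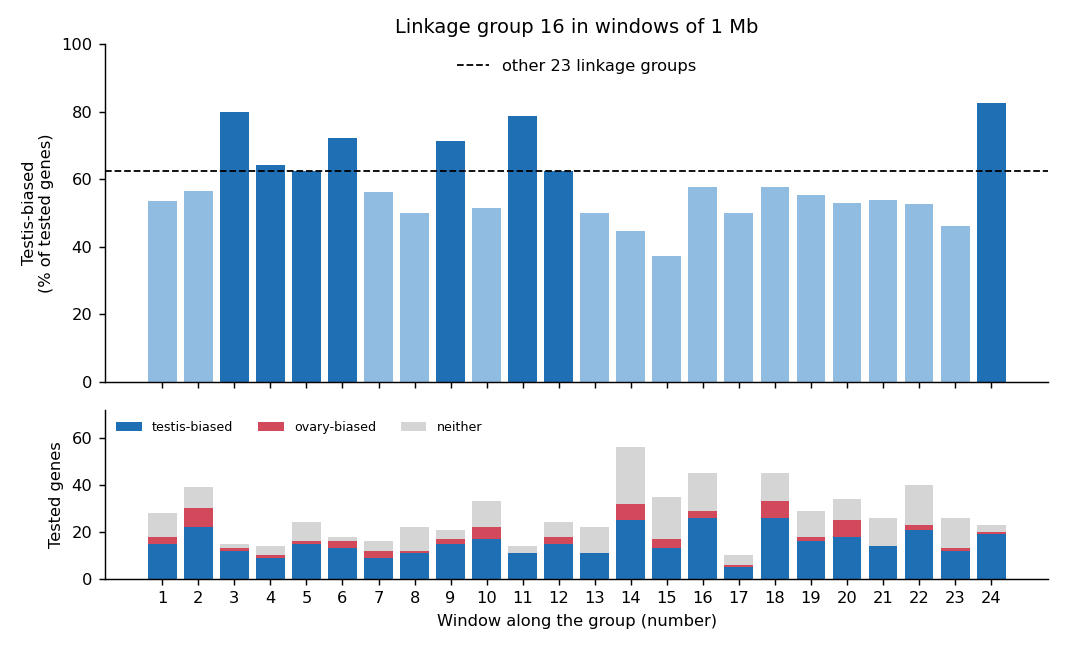
Linkage group 16 in 24 windows of 1 Mb, numbered from the start of the group. The upper panel gives the percent of tested genes that were testis-biased, pale where under the 62.3% of the other 23 groups (dashed line), and the lower panel the number of tested genes of each kind. Windows 13 to 23 are all pale, and windows 14 and 15 are the lowest, at 44.6% and 37.1%.

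Gene models differ between linkage group 16 and the rest in measures that the choice of the group did not use. Spans, from the start to the end of a locus with introns, had a median of 8751 bp on linkage group 16 and 9557 bp on the others, in place 3 of 24 from the shortest. More genes overlapped another gene's span, 437 of 848 (51.5%), against 39.1% on the other groups, in place 3 of 24 from the highest. Among tested genes of the group, 60.1% did so before 12 Mb and 40.2% from 12 to 23 Mb. The largest overlap was that of a model from 9605684 to 11491471, whose 1886 kb span meets 64 other genes. In the whole table longer genes were more often testis-biased. In each of the 5 span classes of equal size the testis-biased share was lower on linkage group 16, by 1.86 to 7.68 percentage points. With the other groups' shares weighted by the span classes of linkage group 16, their share was 61.5%, against 62.3% unweighted. The part of span in the low share was not tested. Among genes that overlap no other, the shares were 57.4% (191 of 333) on linkage group 16 and 63.6% on the other groups. Unlike span and overlap themselves, these testis-biased shares use the contrast on which the group was picked. Nothing is read from them.

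**Figure D3:**
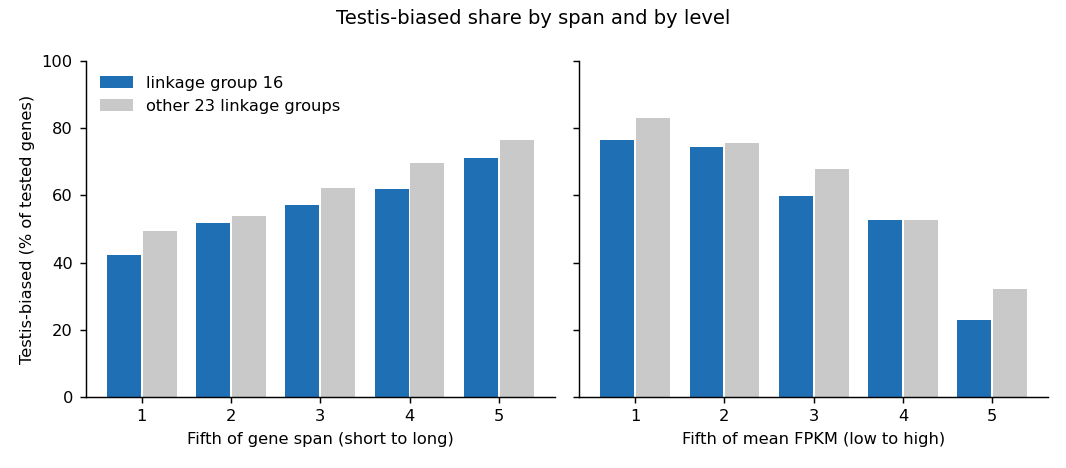
Percent of tested genes that were testis-biased on linkage group 16 (blue, left bar of each pair) and on the other 23 groups (grey), by classes of gene span (left) and of mean FPKM over the 6 libraries (right), each class holding an equal number of tested genes of the linkage groups. Linkage group 16, which was picked for its low share, is lower in all 10 pairs. In the classes of level the pairs run from 22.7% against 32.1% among the most abundant genes to 52.5% against 52.7% in the next class.

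The low share was also seen among the most abundant genes, but the gap was uneven over the level classes. The most abundant of the 5 level classes, with a mean over the 6 libraries of 19.2 FPKM or more, held 154 (23.4%) of the tested genes of linkage group 16. In it 22.7% were testis-biased, against 32.1% on the other groups, the widest gap of the 5 classes. The next most abundant class had the narrowest, with 52.5% against 52.7%. These shares use the contrast on which the group was picked, so nothing is read from them. Testis-biased genes of the group were mostly modest in level, with a median of 7.61 FPKM in testis against 0.526 FPKM in ovary, and 151 of the 370 averaged 10 FPKM or more in testis. Ovary-biased genes were more abundant in their own tissue, with median levels of 6.65 FPKM in testis against 50.6 FPKM in ovary, and 56 of the 66 averaged 10 FPKM or more there. The testes and ovaries did not overlap for any of the 370 testis-biased genes, nor for 64 of the 66 ovary-biased ones. The calls were made from these same values, so this adds no support to them. Of all tested genes, biased or not, 82.2% showed no overlap on linkage group 16, against 84.0% on the other groups and 83.9% in the table.

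Genes present in every testis and nearly absent from ovary were fewer in proportion. Their limits use the contrast on which the group was picked, so nothing is read from their rank. Taking 1 FPKM as the least value allowed in any testis and less than 0.1 FPKM as the limit for any ovary, 63 genes of linkage group 16 (7.43%) were testis-restricted, the lowest share of the 24 groups, against 9.86% on the others. They lay in 22 of the 24 windows, with 33 among the 363 genes before 12 Mb and 30 among the 485 after it. Between 13 and 15 Mb there were 5 among 119 genes. Their median level in testis was 2.88 FPKM, and 4 of them were listed at 0 in all 3 ovaries. No gene of the group met the opposite limits, and only 2 of the 21141 genes on the other groups did.

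The most testis-biased genes were scattered along the group, as the plot of fold changes in gene order shows. These 16 genes are the 8 with the largest log2 fold change in each direction among those past the threshold whose tissues did not overlap and whose higher tissue averaged 10 FPKM or more. SCSFRI_TO_T_00118457 (3665575 to 3692024) had 58.5, 178 and 95.2 FPKM in testes 1, 2 and 3, against 0.0197, 0.0310 and 0.00988 FPKM in the ovaries. It was the most abundant testis-restricted gene of the group, with a log2 fold change of 6.63 and an SE of 0.38 (limma adjusted p = 1.67e-06). SCSFRI_TO_T_00004671, in the last window (23348460 to 23371672), had the highest testis level of these 8, with 395, 536 and 262 FPKM in the testes against 0.954, 4.83 and 5.52 FPKM in the ovaries. The log2 fold change was 6.51 with an SE of 0.49 (limma adjusted p = 5.37e-06). A model of nearly identical span, SCSFRI_TO_T_00139086 (23348440 to 23371663), had 14.18, 18.48 and 8.604 FPKM in the testes and 0.08848, 0.1335 and 0.1087 FPKM in the ovaries. How reads were divided between these models was not tested. SCSFRI_TO_T_00141293 (12198662 to 12219396) had 44.4, 139 and 77.4 FPKM in the testes and 0.145, 0.113 and 0.13 FPKM in the ovaries. The other 5 lay at 1162537, 2860501, 13391831, 18271987 and 21822226, with log2 fold changes of 5.49 to 5.77. Testis 2 was highest for 6 of the 8 genes, and for 5 of them the order was testis 2, testis 3, testis 1. Over all 370 testis-biased genes testis 2 was highest for 29.7% and testis 1 for 43.8%, so that order was not general.

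On the log2(FPKM + 1) scale the most ovary-biased genes reached larger folds than the most testis-biased ones. The ratio of plain means had the other order, at 5473 for SCSFRI_TO_T_00118457, whose ovary values lie under 0.1 FPKM, and 1453 for SCSFRI_TO_T_00074868. None of the 8 ovary-biased genes stood next to another of them. SCSFRI_TO_T_00074868 (5275364 to 5277319) had 5.46, 0.281 and 1.89 FPKM in testes 1, 2 and 3, against 3546, 4055 and 3482 FPKM in the ovaries. The ovaries were close to one another while the testes spread widely at low level, and the log2 fold change was -10.32 with an SE of 0.51 (limma adjusted p = 1.35e-06). SCSFRI_TO_T_00031316 (16013551 to 16015860) had 2.61, 0.0377 and 0.582 FPKM in the testes and 1074, 1474 and 1226 FPKM in the ovaries, a log2 fold change of -9.43. SCSFRI_TO_T_00115892 (6756512 to 6761355) had 1.88, 0.536 and 0.691 FPKM in the testes and 875, 583 and 487 FPKM in the ovaries, a log2 fold change of -8.33. In SCSFRI_TO_T_00036224 (259634 to 268014) the testes had 0.516, 0.0572 and 0.0782 FPKM and the ovaries 243, 217 and 208 FPKM, a log2 fold change of -7.54. The next 3 lay at 1764682, 17431784 and 17786030, with log2 fold changes of -6.35, -5.73 and -6.41. For 7 of the 8 genes testis 1 was the highest testis. The part of this trace in the low testis values was not tested.

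**Figure D4:**
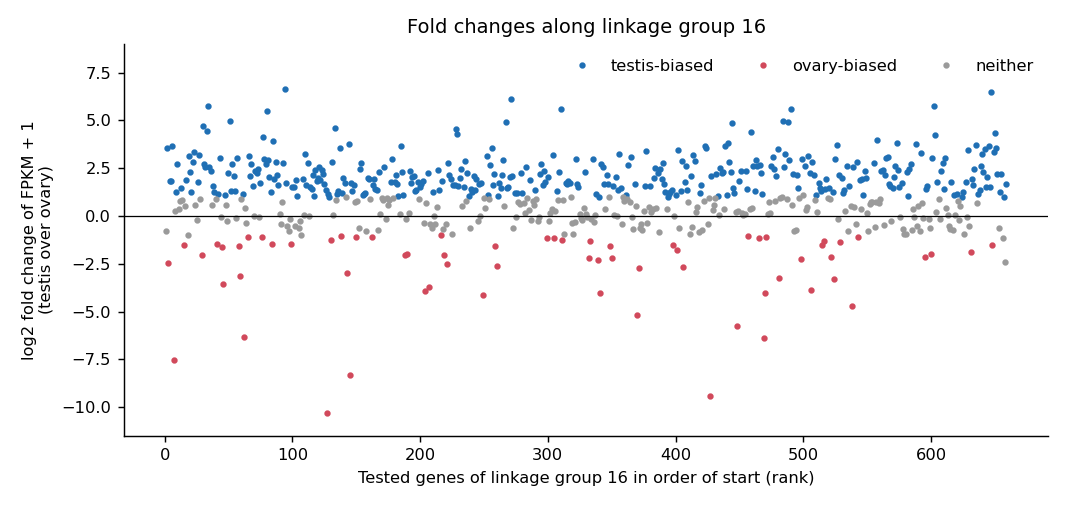
Log2 fold change of FPKM + 1 (testis over ovary) of the 659 tested genes of linkage group 16, in order of their start. Testis-biased genes (blue) are found along the whole group and reach 6.63, while the 12 ovary-biased genes (red) at a log2 fold of 4 or more toward ovary are spread over the group and reach -10.32.

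**Figure D5:**
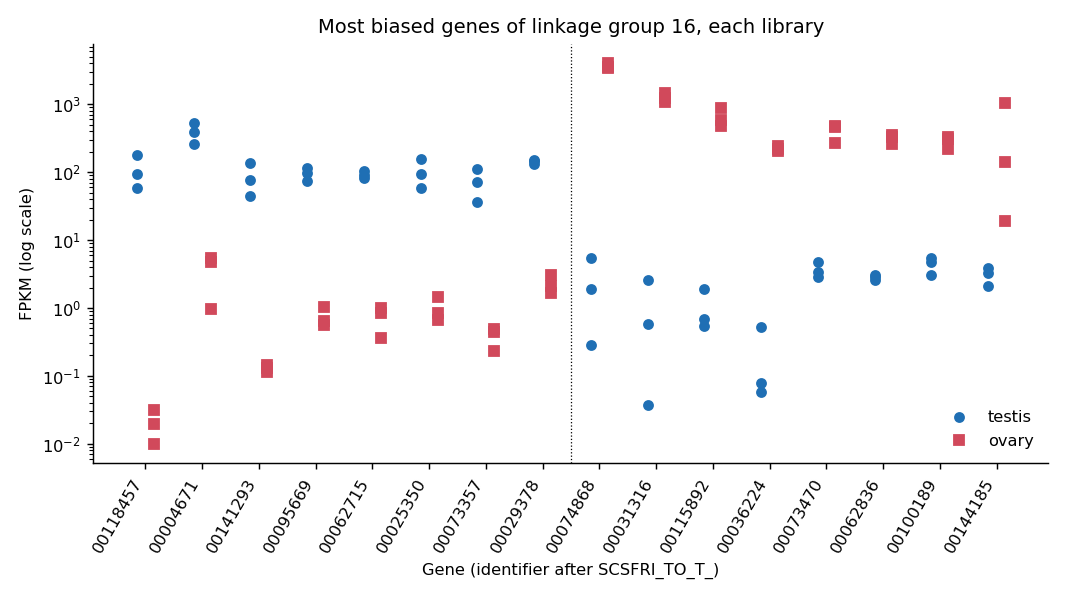
FPKM on a log axis in each library for the 16 most biased genes of linkage group 16, with testes as circles left of ovaries as squares; the 8 genes higher in testis stand left of the dotted line. The rule for these 16 genes required that the tissues do not overlap. The ovaries are widest apart for SCSFRI_TO_T_00144185, with 140, 1048 and 19.4 FPKM.

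The neighbours of these genes were counted after the values were seen, and no difference between the counts was tested. Of tested genes on the whole group, 56.1% were testis-biased and 10.02% ovary-biased. Of the 16 tested genes next to the 8 most testis-biased ones, 13 were testis-biased, 2 ovary-biased and 1 neither. Next to the 8 most ovary-biased genes, 8 of 16 were testis-biased, 2 ovary-biased and 6 neither. SCSFRI_TO_T_00074868, for example, stood between genes with log2 fold changes of 1.34 and 1.17.

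With FPKM as deposited, runs of adjacent tested genes with the same bias were common toward testis and short toward ovary. The biased shares were 56.1% and 10.02%, and a larger share by itself gives longer runs. Both genes were testis-biased in 32.7% of adjacent tested pairs and ovary-biased in 1.37%. Whether the order of the genes adds to this was not tested. The 370 testis-biased genes formed 155 runs, of which 68 were single genes and 18 held 5 genes or more, with 118 genes in all. Of those 18, 12 began before 12 Mb, where 268 genes were tested, and 6 after, where 391 were. The longest held 13 genes (4502999 to 5273354, 770 kb), where the longest runs of the other groups held 9 to 21. Each of its members, like all 370 testis-biased genes, was higher in every testis than in any ovary. The log2 fold changes of the 13 genes were 1.04 to 2.58. In this run SCSFRI_TO_T_00029714 had 10.1, 17.8 and 10.7 FPKM in the testes and 1.17, 1.68 and 0.955 FPKM in the ovaries. SCSFRI_TO_T_00074764 was the most abundant member, with 35.3, 27.2 and 33.6 FPKM in the testes and 2.22, 8.95 and 6.79 FPKM in the ovaries. SCSFRI_TO_T_00029727 had 2.57, 2.68 and 2.44 FPKM in the testes and 0.0231, 0.0109 and 0.0086 FPKM in the ovaries. All 13 spans overlap another gene's, and 3 genes too low to test lie among them. The run was followed directly by SCSFRI_TO_T_00074868, the most ovary-biased gene of the group. Without genes of overlapping span the longest testis run held 6 genes, and it held 6 after centring and 5 after quantile normalization, where some members of the 13-gene run had log2 fold changes under 0. The next run, of 11 genes, lay in the last window, with starts from 23002320 to 23348460, and ended with SCSFRI_TO_T_00004671.

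Toward ovary, 49 of the 57 runs were single genes, 7 were pairs and the longest held 3 genes, where the longest of the other groups held 2 to 11. This run (17786030 to 17848804) was led by SCSFRI_TO_T_00073470, with 4.8, 2.87 and 3.43 FPKM in the testes and 271, 486 and 457 FPKM in the ovaries. SCSFRI_TO_T_00073641 had 0.222, 1.01 and 1.21 FPKM in the testes and 18.7, 50.01 and 22.3 FPKM in the ovaries. SCSFRI_TO_T_00073467 had 1.25, 1.57 and 1.51 FPKM in the testes and 2.71, 5.36 and 5.26 FPKM in the ovaries. Tissues did not overlap for any of the 3, with log2 fold changes of -6.41, -4.02 and -1.12, and ovary 1 was the lowest ovary for each. All 3 spans overlap another gene's. With genes of overlapping span removed, no ovary-biased gene had an ovary-biased neighbour. The length of runs depends on the scaling. The longest ovary run held 6 genes after centring and 4 after quantile normalization, where the longest testis run held 6 and 5. With TPM the longest ovary run held 2 genes and the longest testis run 16.

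The window with the lowest testis-biased share also held the most abundant transcripts of the group. SCSFRI_TO_T_00000774 (14746782 to 14800512) had 2660, 5819 and 4017 FPKM in testes 1, 2 and 3, and 46785, 9122 and 40010 FPKM in ovaries 1, 2 and 3. Ovary 2 was low but still above every testis, and the log2 fold change was -2.70 with an SE of 0.59 (limma adjusted p = 0.0031), or -3.45 without ovary 2. SCSFRI_TO_T_00144185 (14703755 to 14800512), which ends at the same base, had 3.31, 2.11 and 3.87 FPKM in the testes and 140, 1048 and 19.4 FPKM in the ovaries. Here ovary 2 was the highest, and the log2 fold change of -5.16 with an SE of 1.20 (limma adjusted p = 0.0042) was -3.74 without ovary 2 and -6.58 without ovary 3. SCSFRI_TO_T_00138017 (14763267 to 14810312) had 2370, 5473 and 3775 FPKM in the testes and 7553, 4485 and 5623 FPKM in the ovaries, with overlapping tissues. SCSFRI_TO_T_00138015 (14809861 to 14810269) had 853, 2094 and 1573 FPKM in the testes and 3618, 1745 and 1997 FPKM in the ovaries, which also overlap. The limma test did not pass for these 2 as deposited (adjusted p = 0.081 and 0.11), and their direction depends on the scaling. After centring both were higher in ovary (log2 fold changes of -2.09 and -2.15, limma adjusted p = 0.000514 and 0.00124), while after quantile normalization SCSFRI_TO_T_00138017 was higher in testis (1.51, limma adjusted p = 6.97e-05). How reads were divided between such overlapping models was not tested.

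These 4 loci decided the share of the group in the summed FPKM of a library. Linkage group 16 held 5.19%, 6.51% and 5.74% of the sum in testes 1, 2 and 3, and 9.96%, 6.04% and 9.48% in ovaries 1, 2 and 3, with 3.84% of the genes of the table. The 4 loci took 23.1%, 42.3% and 33.6% of the group's sum in the testes and 73.2%, 41.2% and 68.6% in the ovaries. With the full sum of each library kept as the base, the group without them held 3.99%, 3.76% and 3.81% in the testes. In the ovaries it held 2.67%, 3.55% and 2.98%. With the 4 loci counted, the share in ovaries 1 and 3 stood above that in all testes. Without them, the share in each testis stood above that in each ovary. These are shares of library sums that were larger in the ovaries, so they do not give the order of summed FPKM. The only other locus among the 4 most abundant of testis, SCSFRI_TO_T_00095752 (22148326 to 22151828), did not pass the test as deposited, with means of 1307 ± 103 FPKM among testes and 1282 ± 192 FPKM among ovaries (SD, n = 3 each; limma adjusted p = 0.83). Its call too depends on the scaling: it was higher in testis with TPM (log2 fold change 0.61, limma adjusted p = 0.000888) and after quantile normalization (1.26, 0.000216), and higher in ovary after centring (-1.40, 7.88e-05).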

How the data were processed

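The authors deposited 1 table of FPKM values for 3 testes and 3 ovaries, 1 column per library, with 0 columns of other samples. Per the submitters' processing notes, the tools included HISAT2 2.0.4 and StringTie 1.3.3b, with no order or settings stated. Depth is unknown, so no counting interval was computed.

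Genes that reached 1 FPKM in 3 of the 6 libraries were compared on log2(FPKM + 1) with limma 3.58.1 in R 4.3.3, using a two-sided moderated test with a trend on the mean. The model held tissue alone, and p-values were adjusted by Benjamini-Hochberg over 17206 genes. On simulated data for this comparison (17206 genes, 100 changed at each fold), 35% of genes changed by a log2 fold of 1 and 77% by 2 were recovered, with 4 false calls. Far fewer genes were changed there than the 81.6% that passed in the real data, so these rates do not carry over to it. Genes were placed in 1 Mb windows by their start, and windows needed 5 tested genes. Runs are consecutive tested genes, skipping untested ones. Shares, windows and runs are descriptions without a test. Python 3.11.15 and pandas 2.3.3 were used.

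Named genes are the 8 with the largest fold in each direction (mean of at least 10 FPKM, no overlap of replicates), the 4 highest in each tissue, members of the longest runs, and the gene with the largest fold in the lowest and highest window. The linkage group, rules and tests were chosen with earlier results of these data known. No sequence was at hand, so none is shown.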

Additional observations from a re-analysis of the deposited data

How the results depend on the processing

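The share, its gap to the other groups, the window count, the runs and the gene counts were recomputed under alternatives, of which the removal of windows and the scaling by median ratios of all genes above 0 were chosen after seeing the data. Main values were 421 genes toward testis and 99 toward ovary, 370 testis-biased and 66 ovary-biased, a share of 56.1%, a gap of -6.17 points, 16 windows, and longest runs of 13 and 3. The gap stayed under 0 except without the windows from 12 to 23 Mb, where it was 0.571, the share 62.9% and 5 windows of 13 lay below. The share was 60.1% with a pseudocount of 0.1, 45.7% without a filter, 29.3% at a log2 fold of 2 (193 testis-biased, 35 ovary-biased, longest testis run 7), and 48.3% with median ratios of genes at 1 FPKM or more in every library (103 ovary-biased). Asking for a mean of 5 FPKM gave 43.0%, with 194 genes toward testis and 167 testis-biased, from fewer genes tested. TPM gave 67.7% and 55 genes higher in ovary. Median ratios of all genes above 0 gave 23.8%, 257 higher in testis and 294 in ovary, 157 and 247 biased, and longest runs of 5 and 6. Quantile normalization gave 20.3%, 231 and 244, 134 and 163, and a longest testis run of 5. Centring gave 19.6%, 197 and 264, 129 and 206, and runs of 6 and 6. The cause was not tested. Without genes of overlapping span the longest runs were 6 and 1. Windows under the line numbered 29 of 44 at 0.5 Mb and 8 of 12 at 2 Mb. Leaving out 1 library gave 397 to 440 genes toward testis, 84 to 120 toward ovary, 342 to 395 testis-biased and 60 to 75 ovary-biased, shares of 51.9% to 59.9%, gaps of -6.66 to -5.55, 16 to 19 windows, and runs of 9 to 13 and 2 to 3.

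The replicate block gave 371 testis-biased genes (56.3%), 67 ovary-biased, 416 genes toward testis and 93 toward ovary. Deviations of same-numbered testes and ovaries correlated across genes with r = 0.00866, -0.00125 and -0.0586. These values show no common deviation by number. They cannot exclude a shared factor that acts differently on the tissues. Of 514 alternative values of 35 named loci, 481 kept direction and side of the threshold. In 16 values, from 8 loci, the sign turned. Of these loci, 5 belong to the 13-gene testis run and 3 had not passed as deposited. SCSFRI_TO_T_00026181 gave -0.44 with median ratios of all genes above 0, -0.82 with quantile normalization and -0.40 with centring. SCSFRI_TO_T_00074870 gave -0.22 and -0.09 with quantile normalization and centring, SCSFRI_TO_T_00026298 -0.15 and -0.01, SCSFRI_TO_T_00074875 -0.22 with quantile normalization, and SCSFRI_TO_T_00074771 -0.01 with those median ratios. SCSFRI_TO_T_00138017 gave 1.51 and SCSFRI_TO_T_00138015 0.74 with quantile normalization. SCSFRI_TO_T_00095752 gave -0.45 with median ratios of genes at 1 FPKM or more in every library, -2.14 with those of all genes above 0, -1.40 with centring, and -0.05 to 0.15 with 1 library left out (-0.05 without ovary 2 and -0.03 without testis 1). With median ratios of all genes above 0, all 3 passed toward ovary (-2.83 for SCSFRI_TO_T_00138017, -2.89 for SCSFRI_TO_T_00138015). Without ovary 2 and without testis 2, SCSFRI_TO_T_00138017 passed at -0.83 and -0.94. Under quantile normalization SCSFRI_TO_T_00000774 missed the threshold (-1.15, limma adjusted p = 0.263).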

Other observations

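Among the 189 genes of linkage group 16 too low to test, 172 had a higher mean in testis than in ovary (91.0%, against 89.2% of untested genes on the other groups), with medians of 0.434 FPKM in testis and 0.0101 FPKM in ovary. A pair of nearly identical models in the last window had high values in a single library. SCSFRI_TO_T_00004669 (23361287 to 23363398) had 0, 0.167 and 164 FPKM in testes 1, 2 and 3 and 0, 0.291 and 0 FPKM in the ovaries. SCSFRI_TO_T_00067247 (23361286 to 23363400) had 0, 1.43 and 16.2 FPKM in the testes and 0, 0.0153 and 0 FPKM in the ovaries. Both lie inside the span of SCSFRI_TO_T_00004671, which had its lowest testis value, 262 FPKM, in testis 3. They are outside the rule for named genes and were chosen after their values were seen.

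At 13442156, 5 models share a start, none was tested and the highest value in any library was 1.84 FPKM. Of the 5 genes whose identifiers begin with XLOC, 1 was tested: XLOC_013242 (1729260 to 1729726) had 0.174, 0 and 0.182 FPKM in the testes and 11.1, 7.86 and 7.68 FPKM in the ovaries, a log2 fold change of -3.13 (limma adjusted p = 1.88e-06).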
